A study of Homo sapiens with 12 samples.

Results

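The genes described here encode the integrin chains and adhesion molecules by which B cells hold on to other cells and to matrix. They were taken by symbol from the autosomal genes of the count table: ITGA4, ITGB1, ITGB7, ITGAL, ITGB2, ICAM1, ICAM3, CD44 and SELPLG, 9 of 60675 genes. All 9 had reads in every library and passed the filter on low counts, as did 15112 genes in all. RNA came from the human U-2932 line, which was derived from a diffuse large B cell lymphoma, and was read by strand-specific sequencing of polyA+ RNA. The cells stably expressed an introduced Roquin2, either wild type (WT) or with the Y691F substitution, and no group lacked an introduced Roquin2. They were either untreated or treated with F(ab')2-IgM, an antibody fragment used to stimulate the B cell receptor (10 µg/ml, 12 h). Each form was thus sampled untreated and with IgM, and each of the 4 groups held 3 libraries, which the submitters call independent biological replicates. The sources used here do not say whether each Roquin2 form stood in 1 clone or in a pool of cells, so the form and other differences between the lines cannot be told apart.

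Integrins are pairs of an alpha and a beta chain that span the membrane, and a chain reaches the cell surface only with a partner. ITGA4 encodes the alpha chain that pairs with the beta chain of ITGB1, as VLA-4, to bind VCAM1 and fibronectin, or with that of ITGB7 to bind MADCAM1, the address of gut vessels. ITGAL and ITGB2 encode LFA-1, whose ligands are the ICAM proteins, and ICAM1 and ICAM3 are 2 of these ligands carried by lymphocytes themselves. CD44 binds hyaluronan, and SELPLG encodes PSGL-1, the ligand of P-selectin on which leukocytes roll. Signals from the B cell receptor are known to switch integrins to a binding state through RAP1 and talin, a step that mRNA levels do not show.

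Library totals ran from 16465393 to 21478790 counts. RC3H2, the gene of Roquin2, stood at 109 to 111 CPM (counts scaled to the library's size with TMM factors) in untreated WT, 120 to 123 in WT with IgM, 208 to 209 in untreated Y691F and 204 to 207 in Y691F with IgM. It was higher in the Y691F line without IgM (log2 0.92, SE 0.032, adjusted p = 2.5e-41) and with IgM (log2 0.77, SE 0.033, adjusted p = 7.31e-36), so the form of Roquin2 and its mRNA level differed together. All 6 B cell markers checked (MS4A1, CD79A, CD79B, PAX5, CD22 and BLK) were measured, and their summed level was 3410 to 3460 CPM in WT untreated and 2240 to 2280 CPM in WT with IgM. In Y691F the sum was 3000 to 3040 CPM untreated and 2200 to 2240 CPM with IgM. The markers did not move alike: CD79A rose with IgM, with means of 757, 1090, 798 and 1340 CPM in that order of groups. MS4A1, CD79B, PAX5, CD22 and BLK fell in both lines, CD79B from 476 to 78.1 CPM in WT and from 411 to 67.2 CPM in Y691F. CD22 was lower in Y691F, with means of 415, 376, 238 and 176 CPM in that order. The 10 T and NK cell markers summed to 1.06 to 1.95, 1.21 to 1.89, 2.07 to 2.28 and 2.54 to 3.43 CPM in the same order of groups, with CD3D, NCR1 and NKG7 at 0. The 8 myeloid markers summed to 0.81 to 1.58 CPM over all groups, with FCGR3A, S100A8 and S100A9 at 0. The 12 markers of fibroblasts, endothelium and epithelium summed to 20.9 to 27.4 CPM over all groups, of which EPCAM alone made up 20.3 to 22.7 CPM in the group means, with CDH5, KDR and CDH1 at 0. The part of these marker levels and of the RC3H2 level in the results was not tested.

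The promoters of 4 of the genes are shown, chosen after their values were seen, because their responses differed: ITGA4 and CD44 were higher with IgM, ITGB7 fell the most with it, and ICAM1, a textbook NF-kB target, was lower with it. Each is RefSeq sequence of GRCh38.p14, 250 bases before to 50 bases after a RefSeq gene start, 5' to 3' on the gene's strand. That start can differ from the one in the deposited table. The CD44 and ICAM1 windows lie wholly within the deposited spans of these genes, which start at 35138870 and 10270835. Capitals mark matches to the motifs searched.
ITGA4 promoter, chr2:181457136-181457435, plus strand: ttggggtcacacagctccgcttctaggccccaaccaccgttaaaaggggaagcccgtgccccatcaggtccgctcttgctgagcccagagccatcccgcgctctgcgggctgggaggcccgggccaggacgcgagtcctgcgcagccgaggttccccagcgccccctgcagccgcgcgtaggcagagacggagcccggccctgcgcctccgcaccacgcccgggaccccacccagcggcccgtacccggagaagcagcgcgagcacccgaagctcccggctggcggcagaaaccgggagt
CD44 promoter, chr11:35138921-35139220, plus strand: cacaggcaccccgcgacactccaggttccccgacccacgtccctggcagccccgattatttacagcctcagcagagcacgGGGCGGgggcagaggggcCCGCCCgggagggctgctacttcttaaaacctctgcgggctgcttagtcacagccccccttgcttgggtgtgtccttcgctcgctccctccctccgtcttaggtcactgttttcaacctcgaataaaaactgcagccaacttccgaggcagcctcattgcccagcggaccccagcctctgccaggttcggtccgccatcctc
ITGB7 promoter, chr12:53207202-53207501, minus strand: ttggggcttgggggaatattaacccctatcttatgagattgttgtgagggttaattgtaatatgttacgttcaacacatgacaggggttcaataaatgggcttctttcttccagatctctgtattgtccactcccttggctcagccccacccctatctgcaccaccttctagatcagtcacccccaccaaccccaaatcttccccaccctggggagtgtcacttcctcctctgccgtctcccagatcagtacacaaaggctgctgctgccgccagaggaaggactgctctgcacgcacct
ICAM1 promoter, chr19:10270870-10271169, plus strand: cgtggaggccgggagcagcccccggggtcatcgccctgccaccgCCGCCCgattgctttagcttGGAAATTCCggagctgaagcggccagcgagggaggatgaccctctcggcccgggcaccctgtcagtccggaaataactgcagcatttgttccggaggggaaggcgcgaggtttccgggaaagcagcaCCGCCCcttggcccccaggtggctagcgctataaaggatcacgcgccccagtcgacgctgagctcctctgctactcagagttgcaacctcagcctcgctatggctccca
RefSeq promoters were matched for 6 of the 9 genes. The motifs, searched on both strands, were, for NF-kB, GGAANTTCC and a 10-letter form (GGG and TTCC with any 3 letters between), TGANTCA for AP-1, TGTGGT for RUNX, CACGTG for the E-box and GGGCGG for SP1, and the NF-kB forms can match overlapping letters, although no matches overlapped in the windows shown. GGAANTTCC occurred in 0.965% of 35116 promoters of this length, and the ICAM1 window held 1 match, at position -186 from the start. GGGCGG, found in 45% of promoters, occurred 2 times in the ICAM1 window and 2 times in the CD44 window. The shares of the other motifs were 6.52% for the 10-letter NF-kB form, 7.71% for TGANTCA, 13.1% for TGTGGT and 7.26% for CACGTG, and none of these was in the 4 windows. The ITGA4 and ITGB7 windows held no match to any of the motifs searched. A match is a run of letters and not a shown binding site.

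Levels of different genes were compared in RPKM, reads scaled to gene length and library size, as the authors deposited them. In untreated WT cells the order was ITGAL (28.2 ± 0.535 RPKM, SD, n = 3), ICAM1 (23.7 ± 0.282), ITGB7 (20.6 ± 0.682), ICAM3 (13.1 ± 0.42), ITGB1 (6.48 ± 0.244), CD44 (4.71 ± 0.0648), ITGA4 (2.56 ± 0.131), ITGB2 (0.708 ± 0.0527) and SELPLG (0.208 ± 0.0259 RPKM), and no neighbours in that order overlapped. Untreated Y691F cells had ITGAL at 34.2 ± 0.889, ICAM1 at 30.3 ± 1, ITGB7 at 20.9 ± 0.858 and ICAM3 at 12.4 ± 0.316 RPKM in the same first 4 places. There CD44 and ITGB1 overlapped, as did SELPLG and ITGB2. With IgM the order changed in both lines: CD44 took the place behind ITGAL and ICAM1, at 13.9 ± 0.255 RPKM in WT and 12.4 ± 0.398 RPKM in Y691F. ITGB7 dropped to place 7 of 9, at 0.938 ± 0.0433 and 1.98 ± 0.202 RPKM. In WT with IgM, ITGA4 and ICAM3 overlapped, and so did SELPLG and ITGB2. In Y691F with IgM no neighbours overlapped.

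**Figure D1:**
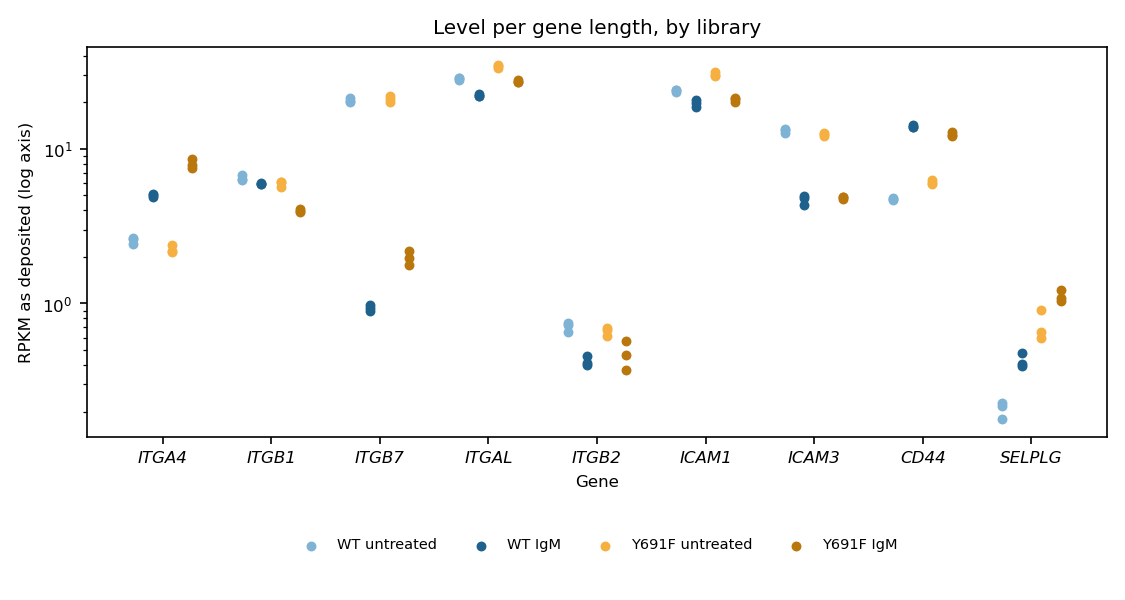
Level of each gene in RPKM as deposited (log axis), 1 point per library, coloured by group. ITGB7 stood at 20.1 to 21.8 RPKM in the 6 untreated libraries and at 0.893 to 2.18 RPKM with IgM, and ITGB2 stayed between 0.371 and 0.752 RPKM in all 12 libraries.

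The comparison of IgM with untreated cells asked how these genes differed with the treatment in each line. The sample titles call the comparison cells untreated and name no control antibody. In WT, 3 of the 9 genes rose (CD44, ITGA4 and SELPLG) and 5 fell (ITGB7, ICAM3, ITGB2, ITGAL and ICAM1), with 1 not called (ITGB1). Over all genes tested, 76.9% were called in WT, 38.4% higher and 38.5% lower, so being called is common in this comparison and the sizes carry more than the count. The median size of the log2 change was 1.1 for the 9 genes and 0.51 for all genes tested. In Y691F all 9 were called, 3 higher and 6 lower, with ITGB1 added to the falls, against 75.8% of all genes (37.1% higher and 38.7% lower). There the median size was 0.79 for the 9 genes and 0.49 for all genes. The signed medians were -0.14 for the 9 genes and 0.002 for all genes in WT, and -0.35 and -0.011 in Y691F. At least 2-fold changes were called for 5 of the 9 in WT (ITGA4, ITGB7, ICAM3, CD44 and SELPLG), against 24.7% of all genes, and for 4 in Y691F (the same without SELPLG), against 22.5%. The split over all genes depended on the scaling: 5809 rose and 5814 fell in WT, but 4642 and 6776 with library totals only, and 5600 rose and 5853 fell in Y691F, but 4245 and 7265 with library totals only. The p-values measure the spread between these libraries, which was small: the common coefficient of variation beyond counting noise was 2.51%. In bulk RNA, fewer cells that carry an mRNA and less of it per cell cannot be told apart.

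ITGB7, the beta chain of the gut-homing integrin (ENSG00000139626, chromosome 12, 53191318 to 53207307, minus strand), had the largest change. It stood at 107, 106 and 112 CPM in the untreated WT libraries and at 5.69, 5.4 and 5.16 CPM with IgM. In Y691F it stood at 114, 110 and 107 CPM untreated and at 10.3, 12.6 and 11.3 CPM with IgM. Every library with IgM lay far below every untreated one, and the Y691F libraries with IgM all lay above the WT libraries with IgM. The fall was 19.9-fold in WT (log2 -4.32, SE 0.065, adjusted p = 3.12e-70) and 9.63-fold in Y691F (log2 -3.27, SE 0.055, adjusted p = 2.83e-66). In WT, 1.29% of all tested genes changed by more. The counts behind the low values were 81 to 100 reads per library in WT with IgM and 179 to 235 in Y691F with IgM. ZNF740 overlaps ITGB7 on the opposite strand and stood at 52.8 and 62 CPM in WT and at 50.6 and 63.6 CPM in Y691F, without and with IgM. The sources used here do not say whether the counting used strand, and the part of ZNF740 reads in the ITGB7 counts was not tested.

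ITGA4, the alpha chain that ITGB7 and ITGB1 share (ENSG00000115232, chromosome 2, 181457202 to 181536187, plus strand), moved the other way. Its untreated WT libraries were at 24.5, 22.3 and 24.4 CPM and those with IgM at 51.2, 51.3 and 50.1 CPM. The Y691F libraries were at 19.8, 20.3 and 22.3 CPM untreated and at 77.3, 79.9 and 87 CPM with IgM. All libraries with IgM were above all untreated ones, and the Y691F ones were the highest. ITGA4 rose 2.15-fold in WT (log2 1.1, SE 0.055, adjusted p = 4.87e-32) and 3.91-fold in Y691F (log2 1.97, SE 0.052, adjusted p = 1.72e-51).

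ITGB1, the beta chain of VLA-4 (ENSG00000150093, chromosome 10, 32900319 to 33005792, minus strand), stood at 44.9, 47.5 and 44.8 CPM in untreated WT and at 46.3, 45.4 and 46.7 CPM with IgM. In Y691F it stood at 39.7, 43 and 43.7 CPM untreated and at 30.4, 30.8 and 31.2 CPM with IgM. The WT groups overlapped, whereas in Y691F the libraries with IgM were all below the untreated ones. No change was called in WT (log2 0.008, SE 0.049, adjusted p = 0.888), and ITGB1 fell 1.37-fold in Y691F (log2 -0.45, SE 0.052, adjusted p = 1.34e-12). The WT value depended on the scaling: with library totals only it was -0.13 (adjusted p = 0.0162), the same as the shift of the median over all genes, -0.13. The processed pseudogene ITGB1P1 on chromosome 19 can share reads with ITGB1, and it stood at 2.46 to 3.39 CPM on average in the 4 groups.

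The mRNA shares of the beta chains that can pair with the ITGA4 chain, taken within each library, shifted with IgM. Which chains paired was not measured. Of the summed RPKM of ITGB1 and ITGB7, ITGB7 made up 75% to 77% in untreated WT and 12.9% to 14.2% with IgM. In Y691F it made up 76.7% to 79.3% untreated and 31.3% to 35.5% with IgM. The log2 ratio of ITGB7 to ITGB1 counts, which needs no scaling between libraries, went from a mean of 1.24 to -3.09 in WT (exact permutation p = 0.1, 2-sided) and from 1.39 to -1.43 in Y691F (exact permutation p = 0.1). With 3 libraries against 3, an exact permutation test cannot give less than 0.1. Per length, ITGA4 was 0.089 to 0.0992 of the summed ITGB1 and ITGB7 level in untreated WT and 0.711 to 0.742 with IgM. In Y691F the same quotient was 0.0783 to 0.0903 untreated and 1.27 to 1.43 with IgM.

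**Figure D2:**
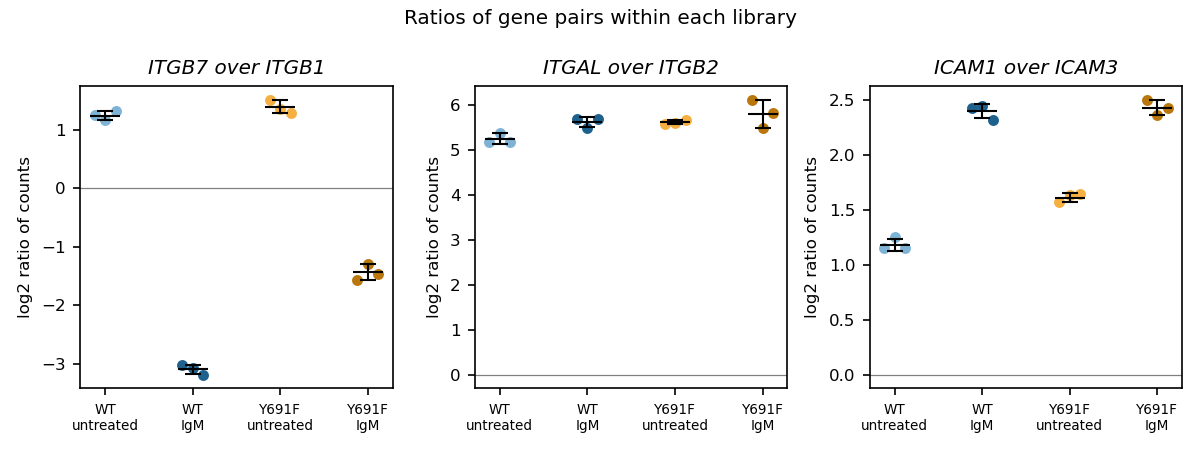
Log2 ratio of counts within each library for 3 gene pairs (points: libraries, bars: mean and SD of 3). ITGB7 over ITGB1 lay between 1.16 and 1.51 in the untreated libraries and between -3.18 and -1.29 with IgM, while ITGAL over ITGB2 stayed between 5.18 and 6.12 in all libraries.

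ITGAL, the alpha chain of LFA-1 (ENSG00000005844, chromosome 16, 30472658 to 30523185, plus strand), changed little. It stood at 212, 215 and 216 CPM in untreated WT, at 183, 181 and 188 CPM in WT with IgM, at 262, 261 and 255 CPM in untreated Y691F and at 227, 227 and 229 CPM in Y691F with IgM. The 4 groups did not overlap. With IgM it fell 1.17-fold in WT (log2 -0.22, SE 0.031, adjusted p = 4.77e-10) and 1.14-fold in Y691F (log2 -0.19, SE 0.03, adjusted p = 1.89e-08). ITGB2, the beta chain that ITGAL needs (ENSG00000160255, chromosome 21, 44885953 to 44931989, minus strand), was low in every library, at 5.83, 5.16 and 5.97 CPM in untreated WT and at 3.53, 4 and 3.63 CPM with IgM. In Y691F it was at 5.47, 5.39 and 4.99 CPM untreated and at 3.28, 5.04 and 4.06 CPM with IgM, where its counts were 59 to 94 reads. ITGB2 fell 1.51-fold in WT (log2 -0.59, SE 0.14, adjusted p = 9.77e-05). In Y691F the groups overlapped, and the fall (log2 -0.35, SE 0.14, adjusted p = 0.0155) lost its call without replicate 1 of Y691F with IgM (log2 -0.2, adjusted p = 0.207) and with the DESeq2 Wald test (adjusted p = 0.0586). Per length, ITGAL stood 38.1 to 54.3 times above ITGB2 in the WT libraries and 47.2 to 72.8 times above it in the Y691F libraries.

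Of the LFA-1 ligands, ICAM3 fell with IgM much more than ICAM1. ICAM3 (ENSG00000076662, chromosome 19, 10333776 to 10339823, minus strand) stood at 46.1, 43.6 and 46.4 CPM in untreated WT and at 18.4, 16.3 and 18.7 CPM with IgM. In Y691F it stood at 42.8, 44 and 42.3 CPM untreated and at 18.1, 18.5 and 18.4 CPM with IgM. The untreated and the IgM libraries were well apart, and WT and Y691F overlapped in both states. The fall was 2.55-fold in WT (log2 -1.35, SE 0.06, adjusted p = 8.08e-36) and 2.35-fold in Y691F (log2 -1.23, SE 0.059, adjusted p = 2.37e-33). The antisense gene AC114271.2 overlaps ICAM3 and stood at 10.4 to 14.3 CPM on average in the 4 groups. With IgM its means were 10.4 CPM in WT and 14.3 CPM in Y691F, beside 17.8 and 18.3 CPM for ICAM3. The part of its reads in the ICAM3 counts was not tested.

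ICAM1 (ENSG00000090339, chromosome 19, 10270835 to 10286615, plus strand), the promoter of which carried the NF-kB motif above, stood at 103 CPM in each of the 3 untreated WT libraries and at 98.8, 88.7 and 93.7 CPM with IgM. In Y691F it stood at 127, 137 and 132 CPM untreated and at 102, 95.1 and 99.2 CPM with IgM. The untreated Y691F libraries were the highest, and both IgM groups overlapped each other. ICAM1 fell 1.1-fold in WT (log2 -0.14, SE 0.039, adjusted p = 0.000988) and 1.33-fold in Y691F (log2 -0.41, SE 0.037, adjusted p = 2.67e-17). Counts of ICAM1 were 2.23 to 2.37 times those of ICAM3 in untreated WT libraries and 5 to 5.44 times with IgM. In Y691F they were 2.96 to 3.11 times those of ICAM3 untreated and 5.14 to 5.67 times with IgM. The mean log2 ratio rose by 1.21 in WT and by 0.82 in Y691F (exact permutation p = 0.1 in each).

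CD44, the hyaluronan receptor (ENSG00000026508, chromosome 11, 35138870 to 35232402, plus strand), stood at 56.9, 55.4 and 54.6 CPM in untreated WT and at 179, 183 and 179 CPM with IgM. In Y691F it stood at 70.2, 70.2 and 75.4 CPM untreated and at 161, 157 and 165 CPM with IgM. WT cells began lower than Y691F cells and ended higher, and the 4 groups did not overlap. CD44 rose 3.24-fold in WT (log2 1.7, SE 0.038, adjusted p = 1.6e-57) and 2.23-fold in Y691F (log2 1.16, SE 0.036, adjusted p = 2.9e-46). The counts do not part the CD44 splice forms.

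SELPLG, the gene of PSGL-1 (ENSG00000110876, chromosome 12, 108622277 to 108633959, minus strand), had the lowest mean CPM of the 9 genes in each group. Its counts were 10 to 74 reads per library. Per length it was last only in untreated WT, and in Y691F with IgM it lay above ITGB2 (1.11 against 0.471 RPKM). It stood at 0.53, 0.668 and 0.631 CPM in untreated WT, at 1.56, 1.3 and 1.28 CPM in WT with IgM, at 1.89, 2.64 and 1.76 CPM in untreated Y691F and at 3.5, 3.97 and 3.3 CPM in Y691F with IgM. The 4 groups did not overlap. With IgM it rose 2.23-fold in WT (log2 1.16, SE 0.29, adjusted p = 0.000231) and 1.73-fold in Y691F (log2 0.79, SE 0.17, adjusted p = 3.21e-05). The antisense gene RP11-689B22.2 overlaps SELPLG and stood at 0.106, 0.391, 0.566 and 1.82 CPM on average in the same order of groups. Its part in the SELPLG counts was not tested.

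**Figure D3:**
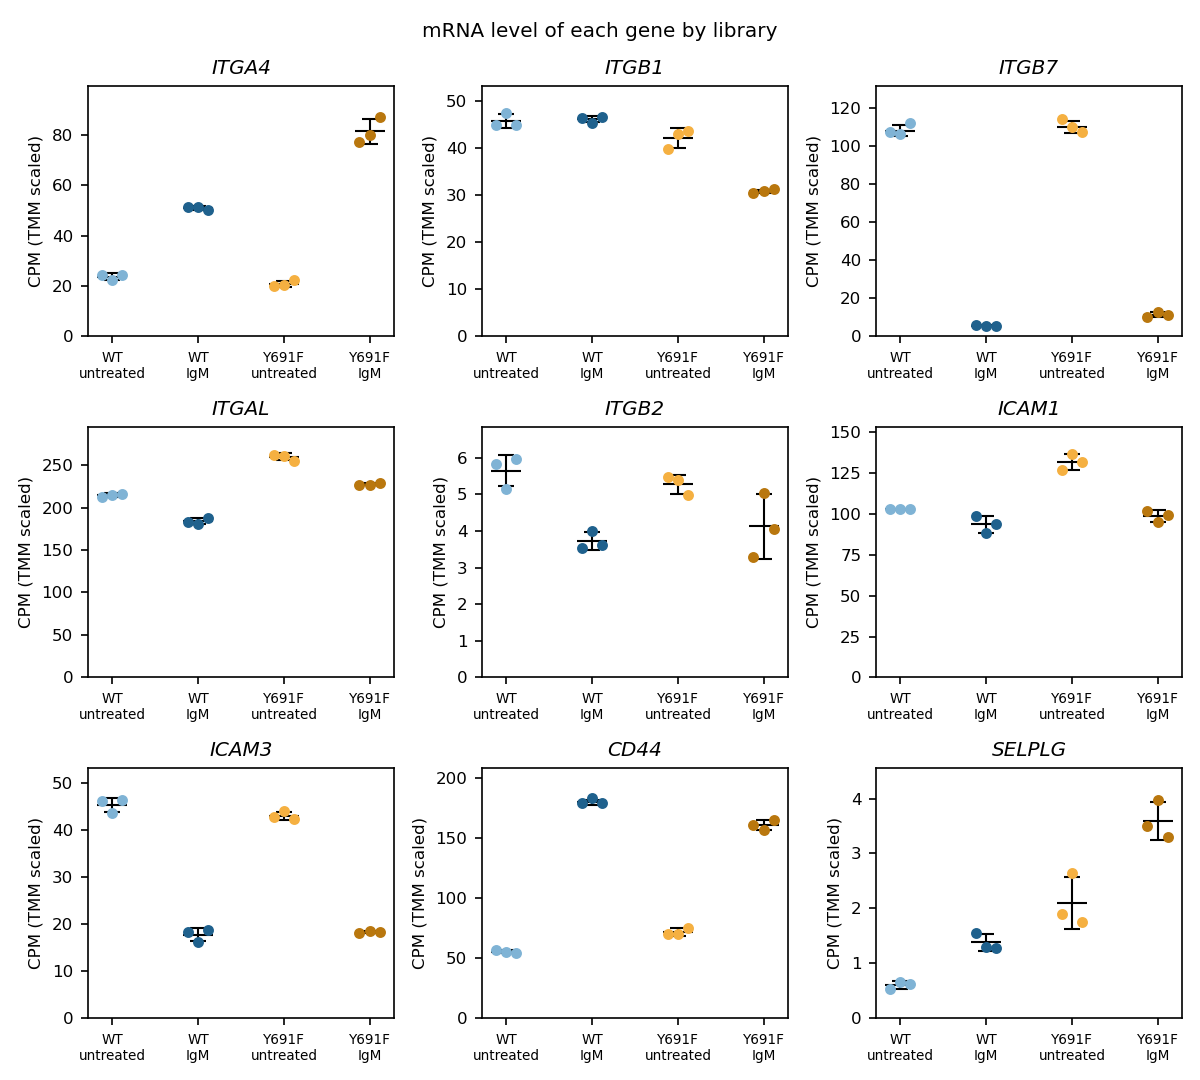
TMM-scaled CPM of the 9 genes in each group (points: 3 libraries, bars: mean and SD, axes from 0). ITGB7 and ICAM3 were lower and ITGA4, CD44 and SELPLG higher with IgM in both lines, and the SELPLG libraries of Y691F lay above those of WT in both states.

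**Figure D4:**
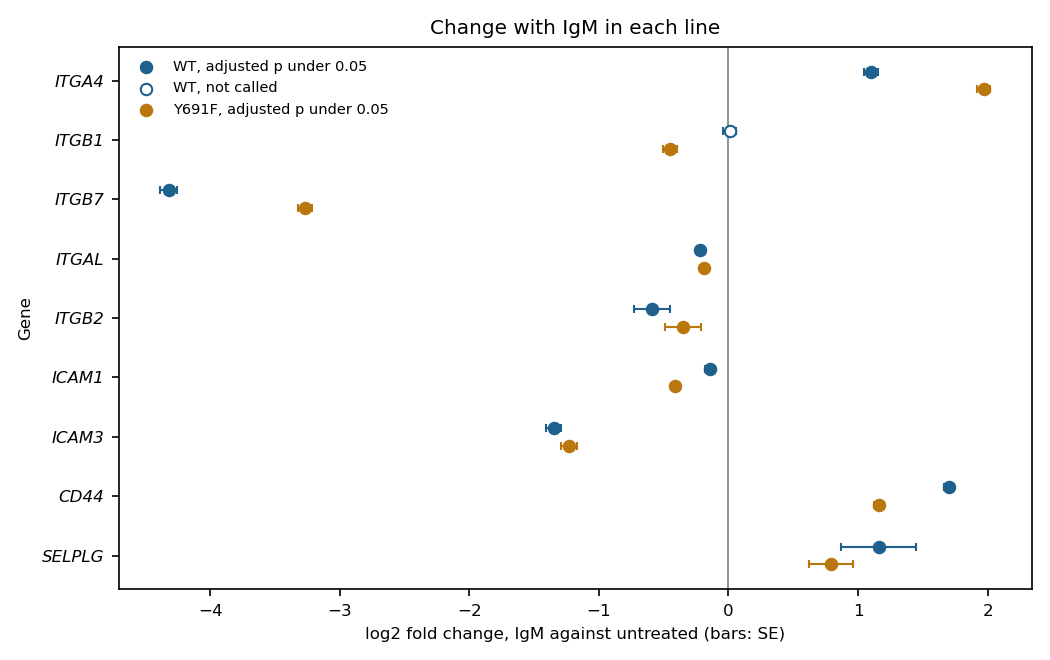
Log2 fold change with IgM against untreated cells in WT and Y691F (points: estimate of the quasi-likelihood fit, bars: SE, open: adjusted p of 0.05 or more). ITGB7 stood at -4.32 in WT and -3.27 in Y691F, and ITGB1 in WT was the 1 open point, at 0.008.

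The comparison of Y691F with WT asked what went with the substitution in each state. With IgM, 4 of the 9 genes were higher in Y691F (SELPLG, ITGB7, ITGA4 and ITGAL) and 2 lower (ITGB1 and CD44), against 42.1% of all tested genes called (21.9% higher and 20.2% lower). Their median size of change was 0.31 on the log2 scale, and 0.19 for all genes. ITGB7 and SELPLG differed at least 2-fold, as did 4.55% of all genes. Without IgM, 4 were higher (SELPLG, CD44, ICAM1 and ITGAL) and 2 lower (ITGA4 and ITGB1), against 31.2% of all genes (15.1% higher and 16.1% lower). Only SELPLG among the 9 differed at least 2-fold there, as did 2.75% of all genes. The median change of the 9 genes was 0.15 with IgM and 0.03 untreated, beside -0.005 and -0.008 for all genes. With library totals only, the untreated split of the 9 was 4 higher and 1 lower. That scaling also turned the split over all genes, from 2279 higher and 2437 lower to 2587 and 2045 untreated, and from 3305 and 3057 to 3079 and 3352 with IgM. These comparisons and the IgM comparisons share libraries, so their values for a gene are not independent.

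SELPLG differed the most between the lines, being 3.38-fold higher in untreated Y691F (log2 1.76, SE 0.25, adjusted p = 1.47e-08) and 2.61-fold higher with IgM (log2 1.39, SE 0.2, adjusted p = 7.03e-09). In untreated cells 1.01% of tested genes differed by more. ITGB7 did not pass the test in untreated cells (log2 0.027, SE 0.037, adjusted p = 0.642), and with IgM it was 2.11-fold higher in Y691F (log2 1.08, SE 0.1, adjusted p = 1.39e-15). ITGA4 was 1.6-fold higher in Y691F with IgM (log2 0.67, SE 0.046, adjusted p = 1.19e-22). In untreated cells ITGA4 was slightly lower in Y691F (log2 -0.19, SE 0.063, adjusted p = 0.0151) with overlapping libraries. That call was lost without replicate 1 of untreated Y691F (log2 -0.15, adjusted p = 0.108), without its replicate 2 (adjusted p = 0.0525), and without replicate 1 (adjusted p = 0.0724) or 3 (adjusted p = 0.0672) of untreated WT.

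ITGB1 was 1.5-fold lower in Y691F with IgM (log2 -0.58, SE 0.053, adjusted p = 2.53e-16). In untreated cells its difference was small (log2 -0.12, SE 0.048, adjusted p = 0.0406) and lost its call in 12 of 20 alternatives. The libraries whose omission ended it were replicate 1 of untreated Y691F (log2 -0.079, adjusted p = 0.296), replicate 2 of untreated WT (log2 -0.092, adjusted p = 0.23), each replicate of WT with IgM (adjusted p = 0.0544 to 0.0557) and replicates 1 (adjusted p = 0.0549) and 2 (adjusted p = 0.051) of Y691F with IgM. ITGAL was higher in Y691F by a like amount in both states, 1.21-fold untreated (log2 0.28, SE 0.029, adjusted p = 5.3e-13) and 1.24-fold with IgM (log2 0.31, SE 0.031, adjusted p = 1.74e-14). ITGB2 gave no call untreated (log2 -0.089, SE 0.12, adjusted p = 0.64) or with IgM (log2 0.15, SE 0.15, adjusted p = 0.46).

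CD44 was 1.29-fold higher in untreated Y691F (log2 0.37, SE 0.041, adjusted p = 1.62e-12) and 1.12-fold lower with IgM (log2 -0.17, SE 0.033, adjusted p = 1.95e-05). ICAM1 was 1.28-fold higher in untreated Y691F (log2 0.35, SE 0.037, adjusted p = 1.37e-13). With IgM no ICAM1 difference was called (log2 0.078, SE 0.039, adjusted p = 0.105), though one was called without replicate 1 of WT with IgM (log2 0.12, adjusted p = 0.0197) or without replicate 2 of Y691F with IgM (log2 0.12, adjusted p = 0.0225). ICAM3 gave no call untreated (log2 -0.073, SE 0.049, adjusted p = 0.278) or with IgM (log2 0.047, SE 0.071, adjusted p = 0.64).

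**Figure D5:**
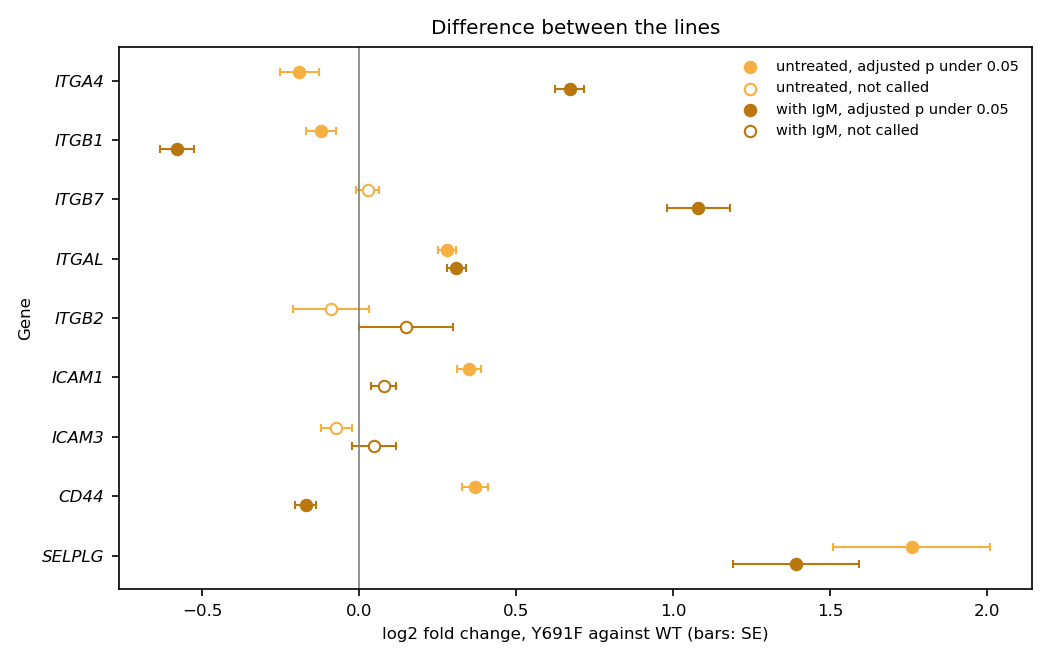
Log2 fold change of Y691F against WT in untreated cells and with IgM (points: estimate, bars: SE, open: adjusted p of 0.05 or more). CD44 and ITGA4 changed sides between the states, CD44 from 0.37 to -0.17 and ITGA4 from -0.19 to 0.67, while SELPLG and ITGAL stayed to the right of 0.

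The difference of the IgM responses, Y691F minus WT, tested directly whether the lines responded unequally. It was called for 5 of the 9 genes, 2 higher (ITGB7 and ITGA4) and 3 lower (CD44, ITGB1 and ICAM1), against 25.7% of all tested genes (14.7% higher and 11% lower). ITGB7 alone among the 9 passed 2-fold, as did 2.7% of all genes. The split over all genes depended on the scaling, with 2217 higher and 1666 lower here and 1846 higher and 2134 lower with library totals only, while that of the 9 genes was 2 and 3 in both. For ITGB7 the difference was 1.05 (SE 0.11, adjusted p = 2.32e-13), a less deep fall in Y691F. For ITGA4 it was 0.86 (SE 0.078, adjusted p = 8.13e-16), a larger rise in Y691F. For CD44 it was -0.54 (SE 0.053, adjusted p = 2.55e-14), a smaller rise in Y691F, and for ITGB1 it was -0.46 (SE 0.072, adjusted p = 1.89e-07). For ICAM1 it was -0.27 (SE 0.054, adjusted p = 2.81e-05), a deeper fall in Y691F. No difference of the responses was called for ITGAL (0.033, SE 0.043, adjusted p = 0.635), ITGB2 (0.24, SE 0.2, adjusted p = 0.416), ICAM3 (0.12, SE 0.087, adjusted p = 0.342) or SELPLG (-0.37, SE 0.34, adjusted p = 0.472).

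Genes of most similar course over the 12 libraries were sought by the root mean square difference of log2 CPM after centring each gene on its mean. Nearest to ITGB7 were RIMS3 (0.15), with group means of 144 CPM (untreated) and 6.66 CPM (IgM) in WT and 123 and 12.1 CPM in Y691F, and METTL7A (0.17). Nearest to ITGA4 were RUNX3 (0.077), a RUNX transcription factor gene with means of 169, 383, 151 and 599 CPM in the same order, and MAP3K8 (0.12). CD44 was followed most closely by SDCBP (0.042; 38, 123, 50.8 and 108 CPM) and HLA-DRB5 (0.059), and ICAM3 by DTX1 (0.059; 697, 285, 654 and 267 CPM) and SLC37A4 (0.065). ITGAL lay nearest to RAPGEF1 (0.028), an exchange factor gene for RAP1 on the list of integrin activators below, and to TMEM179B (0.033). For ITGB1 they were B4GALT5 (0.07) and BCAT1 (0.079), for ICAM1 MYO1D (0.074) and RARS2 (0.075), for ITGB2 TMEM203 (0.1) and NRDE2 (0.11), and for SELPLG BHLHA15 (0.17) and PADI2 (0.27). The distances must be read beside each gene's own spread, the root mean square of its centred values. That was 1.93 for ITGB7, 0.88 for SELPLG, 0.81 for ITGA4, 0.73 for CD44 and 0.65 for ICAM3. It was only 0.28 for ITGB2, 0.24 for ITGB1, 0.19 for ICAM1 and 0.18 for ITGAL. Any link between genes of like course was not tested.

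Other integrin chains were mostly low: of the 21 on the list, 8 passed the filter. ITGAE, an alpha chain that pairs with the beta chain of ITGB7, fell with IgM, from 22.8 to 5.05 CPM on average in WT (log2 -2.18, SE 0.092, adjusted p = 3.2e-37) and from 18.6 to 5.46 CPM in Y691F (log2 -1.76, SE 0.092, adjusted p = 8e-31). ITGB8, a beta chain that pairs with the alpha chain of ITGAV, rose from 8.22 to 23.2 CPM in WT (log2 1.49) and from 17.3 to 56.4 CPM in Y691F (log2 1.7), and was higher in Y691F with IgM (log2 1.29, SE 0.062, adjusted p = 4.55e-30). ITGA3, a laminin receptor chain, fell in WT (log2 -1.42, SE 0.094) and in Y691F (log2 -0.66, SE 0.084). ITGB4 fell from 2.89 to 0.274 CPM in WT (log2 -3.36, SE 0.3) and from 3.31 to 0.251 CPM in Y691F (log2 -3.7, SE 0.29). With IgM 3 chains rose and 4 fell in WT, and 4 rose and 4 fell in Y691F, where 76.9% and 75.8% of all tested genes were called. In Y691F against WT, 3 were higher and 0 lower with IgM, and 2 higher and 2 lower untreated, where 42.1% and 31.2% of all tested genes were called. The median change of the list was -0.59 with IgM in WT and -0.11 in Y691F, and 0.13 (with IgM) and 0.07 (untreated) for Y691F against WT, where the median of all genes lay between -0.011 and 0.002. ITGAM and ITGAX, the myeloid partners of ITGB2, had at most 1 and 2 reads in a library.

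Of 12 ligands and counter-receptors 8 were tested, and VCAM1 had no read in any library. F11R, the gene of the junctional protein JAM-A and an LFA-1 ligand, fell with IgM from 16.9 to 4.09 CPM in WT (log2 -2.05, SE 0.1) and from 19.9 to 6.67 CPM in Y691F (log2 -1.58, SE 0.088). ICAM2, another LFA-1 ligand gene, rose with IgM in WT (log2 0.3, SE 0.055) and Y691F (log2 0.42, SE 0.051). ICAM5, an ICAM gene known from neurons, rose in WT (log2 0.85, SE 0.086), stood at 10.3 and 11.6 CPM without and with IgM in Y691F (log2 0.18, SE 0.088, adjusted p = 0.0636), and was lower in Y691F with IgM (log2 -0.47, SE 0.083). FN1, the fibronectin gene, was low and higher in Y691F with IgM (4.51 against 1.68 CPM, log2 1.43, SE 0.19). The list counted 4 higher and 2 lower with IgM in WT, beside 76.9% of all tested genes called. In Y691F with IgM it counted 3 and 1, beside 75.8%. For Y691F against WT it counted 4 and 1 with IgM, beside 42.1%. Untreated it counted 2 and 0 (3 and 0 with library totals only), beside 31.2%. Its medians in that order were 0.15, 0.34, 0.66 and 0.20, beside 0.002, -0.011, -0.005 and -0.008 for all genes. The 0.66 lay between MADCAM1 (log2 0.62, not called) and F11R (log2 0.71). MADCAM1, ICAM4 and JAM2 had at most 20 reads in a library, and none of them was called in Y691F against WT with IgM.

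Among 22 genes that act on integrins from inside the cell, 17 were tested. TLN1, the talin gene, stood at 513 to 559 CPM on average in the 4 groups, and FERMT3, the kindlin-3 gene, at 60 to 72 CPM. APBB1IP, which encodes the RAP1 effector RIAM, fell from 277 to 62 CPM in WT (log2 -2.16, SE 0.036) and from 220 to 58.7 CPM in Y691F (log2 -1.91, SE 0.036). RASSF5, the gene of the RAP1 effector RAPL, fell from 145 to 51.9 CPM in WT (log2 -1.48, SE 0.041) and from 119 to 92.9 CPM in Y691F (log2 -0.36, SE 0.038). It was lower in untreated Y691F than in WT (log2 -0.28, SE 0.035) and higher there with IgM (log2 0.84, SE 0.043, adjusted p = 2.55e-30). RASGRP3, an exchange factor gene, was lower in Y691F with IgM (log2 -0.78) and untreated (log2 -0.73). The list counted 4 higher and 10 lower with IgM in WT (4 and 13 with library totals only), beside 76.9% of all genes called. In Y691F with IgM it counted 7 and 10 (5 and 11 with library totals only), beside 75.8%. In Y691F against WT it counted 8 and 2 with IgM (all genes: 21.9% higher and 20.2% lower), and 3 and 5 untreated (6 and 5 with library totals only; all genes: 15.1% higher and 16.1% lower). Its medians were -0.27 and -0.21 with IgM in WT and Y691F, and 0.12 and -0.002 for Y691F against WT with IgM and untreated.

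Of 18 genes of integrin signalling and actin linkage 16 were tested. SLC3A2, whose product CD98 binds beta chains and carries amino acid transporters, rose from 225 to 821 CPM in WT (log2 1.86, SE 0.03) and from 209 to 820 CPM in Y691F (log2 1.97, SE 0.03). PTK2B, the gene of the adhesion kinase PYK2, fell in WT (log2 -2.1) and Y691F (log2 -2.05), and the GTPase gene RAC2 fell in WT (log2 -1.05) and Y691F (log2 -0.76). VCL, the vinculin gene, fell from 19 to 6.37 CPM in WT (log2 -1.59, SE 0.092) and from 21.1 to 11.9 CPM in Y691F (log2 -0.82, SE 0.078), and was higher in Y691F with IgM (log2 0.92, SE 0.1). The list counted 6 higher and 8 lower with IgM in WT (3 and 9 with library totals only), beside the 76.9% of all genes. In Y691F with IgM it counted 7 and 7 (6 and 8 with library totals only), beside the 75.8%. In Y691F against WT it counted 7 and 1 with IgM, and 4 and 5 untreated, beside 42.1% and 31.2% of all genes called. The medians in the same order were -0.23, -0.11, 0.07 and 0.02.

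For CD44 and PSGL-1, 16 of 21 linkers, sugar enzymes and sheddases were tested. RDX, one of the ERM genes that tie both proteins to actin, rose from 35.3 to 93.6 CPM in WT (log2 1.41, SE 0.046) and from 48.9 to 69.9 CPM in Y691F (log2 0.52, SE 0.045). It was higher in Y691F than in WT untreated (log2 0.47, SE 0.049, adjusted p = 2.22e-13) and lower with IgM (log2 -0.42, SE 0.042). EZR, another ERM gene, was higher in Y691F untreated (692 against 591 CPM, log2 0.23) and with IgM (815 against 634 CPM, log2 0.36). GCNT1, which builds the branched sugars of PSGL-1, rose in WT (5.04 to 15 CPM, log2 1.57) and Y691F (4.53 to 16.8 CPM, log2 1.89), whereas FUT7, needed for selectin binding, had at most 1 read in a library. The sheddase gene ADAM8 fell in WT (log2 -1.99) and Y691F (log2 -2.15). Other sheddase genes rose, ADAM17 from 33.7 to 58.3 CPM in WT and from 35.7 to 50.8 CPM in Y691F. ADAM10 rose from 43.6 to 62.2 CPM in WT and from 49.7 to 62.6 CPM in Y691F. The list counted 7 higher and 5 lower with IgM in WT (4 and 6 with library totals only), beside 76.9% of all genes called. In Y691F with IgM it counted 8 and 5 (7 and 6 with library totals only), beside 75.8%. In Y691F against WT it counted 6 and 4 with IgM, and 6 and 2 untreated, beside 42.1% and 31.2%. The medians in the same order were 0.10, 0.21, 0.15 and 0.08.

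All 15 tetraspanins and other leukocyte adhesion genes were tested, and with IgM 7 rose and 8 fell in WT, and 6 rose and 8 fell in Y691F, beside 76.9% and 75.8% of all genes called. CD82, a tetraspanin gene, fell from 106 to 14.3 CPM in WT (log2 -2.89, SE 0.056) and from 68.3 to 16.8 CPM in Y691F (log2 -2.02, SE 0.057). The tetraspanin genes CD81 and CD37 fell in both lines as well, CD81 by log2 values of -1.4 in WT and -0.95 in Y691F, and CD37 by -1.39 and -1.89. CD9, CD53 and TSPAN33 also fell in both lines, but other tetraspanin genes rose. CD151 went from 2.95 to 25.9 CPM in WT (log2 3.12) and from 5.77 to 24.8 CPM in Y691F (log2 2.11). CD63 went from 8.74 to 40.5 CPM in WT (log2 2.22) and from 9.86 to 37.8 CPM in Y691F (log2 1.94). CD48, a ligand of CD2-family receptors, rose from 58.1 to 307 CPM in WT (log2 2.4, SE 0.035) and from 58.1 to 178 CPM in Y691F (log2 1.61, SE 0.036). ALCAM, the CD6 ligand gene, rose from 32.7 to 112 CPM in WT (log2 1.77, SE 0.044) and from 40.5 to 143 CPM in Y691F (log2 1.83, SE 0.041). Y691F against WT counted 4 higher and 6 lower with IgM, beside 42.1% of all genes called. Untreated it counted 4 and 6 (5 and 6 with library totals only), beside 31.2%. The medians in the same order were -0.42, -0.41, -0.065 and -0.003.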

How the data were processed

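RNA of 12 U-2932 libraries in 4 groups of 3 was measured by polyA+ RNA-seq with dUTP strand marking, per the labels' protocols. The authors deposited raw read counts and RPKM values per Ensembl gene, per the file headers. The submitters' processing notes name STAR 2.5.0b, DESeq2 and GRCh38 but not what each was used for. For the read counter, its use of strand and the annotation release, nothing is given in the sources used here. Coordinates of genes (1-based) are those of the deposited table, and those of promoters are those of the RefSeq windows.

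From the counts, genes passing filterByExpr were tested with the robust quasi-likelihood test of edgeR 4.0.16 (R 4.3.3) on TMM-scaled counts, over all 12 libraries with 1 coefficient per group. Benjamini-Hochberg adjustment ran over all 15112 tested genes, with calls made below an adjusted p of 0.05. SE is the log2 change over the square root of F. Deposited RPKM values, to which the TMM factors were not applied, served to compare genes and to form quotients within a library. They were also an alternative for the ratios of counts. Changes of single genes between groups were tested on counts only. Alternatives were DESeq2 1.42.0 (Wald test or size factors), limma-voom (limma 3.58.1), library totals, other filters (none, or 5 CPM in 3 libraries), a replicate block, the groups compared alone, and leaving out each library. Only the quasi-likelihood test was tried on simulated counts, for Y691F against WT with IgM. Far fewer genes changed in that simulation than were called in the data, so it does not cover so wide a change.

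Named were the 9 genes, RC3H2, per list and comparison up to 3 called genes of lowest adjusted p (mean of at least 1 CPM), and the 2 genes of nearest course (log2 of CPM + 0.1, protein-coding). Promoters are RefSeq sequence of GRCh38.p14. Levels or changes of some other list genes (TLN1, FERMT3, VCAM1, ITGAM, ITGAX, FUT7, CD9, CD53, CD63, CD151, TSPAN33, ADAM10, ADAM17, CD79A, MADCAM1, ICAM4, JAM2) were named after their values were seen. The genes and lists were chosen with earlier results of these data known. Some genes of the wider lists are not reported here and were left out of the lists' counts, medians and sums.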

Additional observations from a re-analysis of the deposited data

Results flagged for a closer look

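The IgM response differed between the lines, by the test of the difference itself (Y691F minus WT, log2, edgeR adjusted p), for ITGB7 (1.05, 2.32e-13), ITGA4 (0.86, 8.13e-16), CD44 (-0.54, 2.55e-14), ITGB1 (-0.46, 1.89e-07) and ICAM1 (-0.27, 2.81e-05).

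Over all genes tested, 25.7% were called in this comparison, 14.7% higher and 11% lower. For the wider lists, up to 3 genes of lowest adjusted p each are named. Among other integrin chains (3 higher, 0 lower of 8) and ligands (2 higher, 1 lower of 8) the difference was called for ITGA3 (0.77), ITGAE (0.42, adjusted p = 0.021), ITGAV (0.3, adjusted p = 0.0208), FN1 (1.45), F11R (0.47, adjusted p = 0.0104) and ICAM5 (-0.68). Without replicate 1 of WT with IgM the F11R difference was 0.41 (adjusted p = 0.0538). Without replicate 2 of WT with IgM the ITGAE difference was 0.35 (adjusted p = 0.103), and without replicate 1 of Y691F with IgM 0.36 (adjusted p = 0.0856). The ITGAV call was lost with the DESeq2 Wald test (adjusted p = 0.0508), without replicate 2 of WT untreated (0.27, adjusted p = 0.0717), without replicate 3 of WT with IgM (0.26, adjusted p = 0.0674), without replicate 1 of Y691F untreated (0.25, adjusted p = 0.0815) and without replicate 3 of Y691F with IgM (0.27, adjusted p = 0.0578).

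The list of integrin activation held 7 higher and 1 lower of 17 tested (6 and 2 with library totals only), among them RASSF5 (1.12), SIPA1 (0.44) and FLNA (0.24), and the lower one was RAP1A (-0.21), named after its value was seen. The list of signalling and actin linkage held 7 higher and 0 lower of 16 (5 and 0 with library totals only). Among them were VCL (0.77), ILK (0.36) and RAC2 (0.29). The CD44 and PSGL-1 list held 2 higher and 5 lower of 16 (1 and 5 with library totals only), among them RDX (-0.89), B4GALT1 (-0.33) and ADAM17 (-0.28), and the higher ones were EZR (0.14) and MSN (0.11), named after their values were seen. The other adhesion genes held 3 higher and 6 lower of 15, among them CD48 (-0.79), CD37 (-0.5) and CD81 (0.45).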

How the results depend on the processing

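Of 886 values of the 9 genes under the alternatives, 857 kept their direction and their side of the threshold, 18 lost a call, 2 gained one and 9 changed sign. The counts of the 9 genes called stayed within 1.5 times under every alternative run. The values that changed sign were not called in the fit reported above, and the cause was not tested. For ITGB1 with IgM in WT the value was -0.13 with library totals only (then called), -0.035 with the 5 CPM filter and -0.0031 with the compared groups alone, and leaving out 1 library gave -0.0041 (replicate 3 of untreated WT) to 0.041 (its replicate 2), with -0.0038 and -0.0039 when replicate 1 of untreated WT or replicate 3 of WT with IgM was left out. For Y691F against WT with IgM, leaving out 1 library gave -0.021 to 0.31 for ITGB2, -0.0061 to 0.092 for ICAM3 and -0.004 to 0.068 for the ICAM1 to ICAM3 ratio, which was -0.003 without replicate 1 of Y691F with IgM. ITGAL in the difference of responses was -0.0024 with library totals only. That scaling moved the median over all genes to -0.13 with IgM in WT and to -0.18 in Y691F. Replicate numbers did not pair the libraries: correlations of same-numbered deviations ran from -0.08 to 0.13, with 1 of 18 over 0.1, and 5 of 12 libraries were closest to their own number. With the replicate block 6364 genes were called for Y691F against WT with IgM, against 6362 without it, and no call among the 9 genes changed. SELPLG had no value under the 5 CPM filter, and ITGB2 and SELPLG had the fewest reads.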
